A study of Mus musculus with 12 samples.

Results

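Collagen chain genes were defined as all genes whose symbol in the platform annotation reads Col, a number, a, and a number. The arrays measured 42 of them among 18193 genes, and each was represented by the brightest of its probe sets that name exactly 1 gene. Of the 42, 15 had 1 such probe set and 27 had several, 82 in all. Expression was measured with Affymetrix mouse arrays in cells taken from primary cultures of whole bone marrow of female C57BL/6 mice aged 6 weeks. Some cultures received 17βE (17β-estradiol) at 1 nM for 1 week, and the control cultures were not treated. From both kinds of culture a c-kit+ fraction, which the labels call stem cells, and a CD44+ fraction, which the labels call stromal cells, were analysed. The 4 groups were c-kit+ 17βE, c-kit+ control, CD44+ 17βE and CD44+ control cells, with 3 arrays each. The labels name no gene alteration in any group. Whether the replicates of a group were grown or prepared separately is not stated in the labels, and the p-values therefore cover only the spread seen among these arrays, which may be technical.

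Collagens are extracellular matrix proteins whose chains wind into a triple helix, and their genes fall into types by the structure they build. Fibrillar types I, II, III, V and XI form the tensile fibres of connective tissue, type IV forms the sheet of basement membranes, type VI forms beaded filaments near the cell, and the FACIT types sit on the surface of fibrils. In bone marrow, collagen is known as a product of mesenchymal stromal cells, bone-forming cells and vessel walls, which hold the marrow's reticular fibre scaffold.

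Promoter sequences are shown for 4 members on which the results turn. Col1a2 and Col3a1 encode fibrillar chains that lay more than 3 log2 units lower in c-kit+ than in CD44+ cells. Col4a5 and Col4a6 are neighbours that start beside each other on opposite strands of chromosome X, and of this pair Col4a5 differed between the fractions while Col4a6 did not pass. The sequences are from RefSeq (GRCm38.p6), 5′ to 3′ on the gene's own strand, and end at the base before the gene's outermost annotated start. Capitals mark matches, on either strand, to the TATA box, which was searched as TATAAA, to the CCAAT box, searched by its own letters, and to the GC box, which was searched as GGGCGG. The Col1a2 stretch is chr6:4505368-4505617 (plus strand), that of Col3a1 is chr1:45311288-45311537 (plus), that of Col4a5 is chrX:141475169-141475369 (plus) and that of Col4a6 is chrX:141474096-141474326 (minus).
Col1a2: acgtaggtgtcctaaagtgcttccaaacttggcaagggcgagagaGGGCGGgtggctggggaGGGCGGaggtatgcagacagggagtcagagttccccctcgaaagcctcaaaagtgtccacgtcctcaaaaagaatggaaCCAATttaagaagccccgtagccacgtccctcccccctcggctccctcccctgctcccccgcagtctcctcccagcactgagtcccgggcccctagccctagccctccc
Col3a1: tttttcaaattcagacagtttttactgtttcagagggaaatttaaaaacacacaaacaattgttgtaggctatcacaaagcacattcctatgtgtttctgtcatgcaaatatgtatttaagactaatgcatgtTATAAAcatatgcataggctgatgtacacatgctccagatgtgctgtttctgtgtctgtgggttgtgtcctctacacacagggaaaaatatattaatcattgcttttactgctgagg
Col4a5: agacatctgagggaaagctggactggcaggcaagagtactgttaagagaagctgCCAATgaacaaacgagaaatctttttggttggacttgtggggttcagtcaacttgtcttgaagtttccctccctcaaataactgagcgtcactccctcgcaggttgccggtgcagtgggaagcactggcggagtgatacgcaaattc
Col4a6: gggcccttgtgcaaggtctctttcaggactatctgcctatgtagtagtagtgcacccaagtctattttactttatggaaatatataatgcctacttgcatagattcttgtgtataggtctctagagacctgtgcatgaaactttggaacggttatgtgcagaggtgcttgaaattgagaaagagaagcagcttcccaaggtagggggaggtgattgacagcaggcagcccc
The Col1a2 stretch holds 1 CCAAT box and 2 GC boxes, the Col3a1 stretch 1 TATA box, the Col4a5 stretch 1 CCAAT box and the Col4a6 stretch none of these letters. The windows of Col4a5 and Col4a6 that run up to a later start also hold a GC box. Of 32851 RefSeq windows of 250 bases before a start, 12.4% held a TATA box, 33.8% a CCAAT box and 32.7% a GC box. Of 36 such windows for 33 collagen genes, 5 held a TATA box, 13 a CCAAT box and 21 a GC box. A match is a description of the letters only.

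Values are on the log2 scale, so a difference of 1 is a doubling, and they can be compared between arrays for a gene but not between genes. No detection calls were used here. As a guide to background, 5 Y-linked genes, which female cells lack, read between 3.04 and 4.54 over the 12 arrays, and a probe set for Sry read between 6.13 and 6.37. The median gene had a mean of 5.95 over all arrays, and 14 of the 42 collagen genes were at or above it. Kit, the gene of the c-kit receptor, read between 3.79 and 4.22 on all 12 arrays, within the range of those Y-linked genes. Its c-kit+ minus CD44+ log2 difference was 0.01 in 17βE cultures and -0.04 in control cultures. Cd44, the gene of the CD44 surface glycoprotein, averaged 12.1 in c-kit+ 17βE cells, 11.9 in c-kit+ control cells, 12.3 in CD44+ 17βE cells and 12.1 in CD44+ control cells, and passed in no comparison. Neither gene passed between the fractions. The mean of 9 macrophage genes lay between 12.04 and 12.62 on every array of both fractions.

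**Figure D1:**
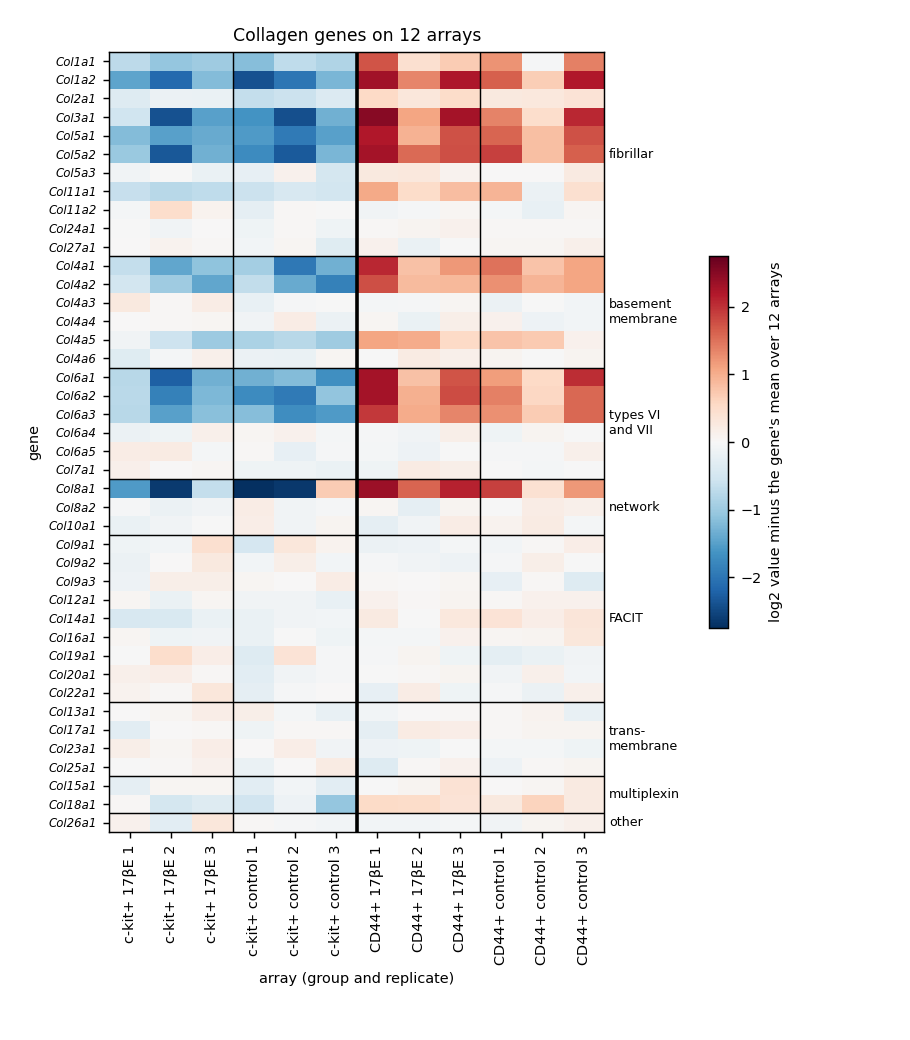
Log2 value minus the gene's mean over the 12 arrays (colour) for the 42 collagen genes (rows, grouped by type) on the 12 arrays (columns, 3 per group). Several rows from Col1a1 to Col6a3 are blue on the c-kit+ arrays and red on the CD44+ arrays. So are Col8a1 (apart from c-kit+ control replicate 3), Col11a1 and Col18a1, and Col14a1 also passed with a smaller difference. By their brightest probe set, which is drawn here, the other 26 genes differ little between the fractions. A second set of Col12a1, not drawn, differs more.

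The first question was how collagen expression differed between the fractions. Collagen genes were lower in c-kit+ cells than in CD44+ cells. By the brightest probe set of each gene, the difference lay in types I to VI, VIII, XI, XIV and XVIII. Of the 42 genes, 15 were lower in c-kit+ cells in the 17βE cultures (limma, Benjamini-Hochberg adjusted p below 0.05), where 2.33% of all 18193 genes were. In the control cultures 14 of the 42 were lower, against 1.76% of all genes. None was higher in c-kit+ cells, where 0.324% of all genes were in 17βE cultures and 0.539% in control cultures. Both lists held 13 genes, which is 13 of the 15 and 13 of the 14, and 16 genes were on at least 1 of them. The 2 comparisons use different arrays but the same estimate of spread, and same-numbered CD44+ arrays of both kinds of culture varied together. The 2 lists are therefore not independent. The median log2 difference of the 42 genes was -0.10 in 17βE cultures and -0.18 in control cultures, beside 0.03 and 0.01 for all genes. As a description of the lists, which these same differences chose, the 16 genes had medians of -2.48 (17βE) and -2.58 (control), and the other 26 had medians of 0.05 and -0.07. In samples of mixed cells like these, fewer cells of a type and less RNA per cell cannot be told apart.

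The c-kit+ arrays all lay below the CD44+ arrays for 18 of the 42 genes (42.9%) in the 17βE cultures, where this held for 8.15% of all genes. In the control cultures it held for 20 of the 42 genes (47.6%), against 8.33% of all genes. The reverse order held for Col23a1 in 17βE cultures (2.38% of the 42 genes, against 10.0% of all genes) and for none in control cultures (against 7.41%). All 16 genes were separated in this way in 17βE cultures, and all but Col8a1 in control cultures.

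**Figure D2:**
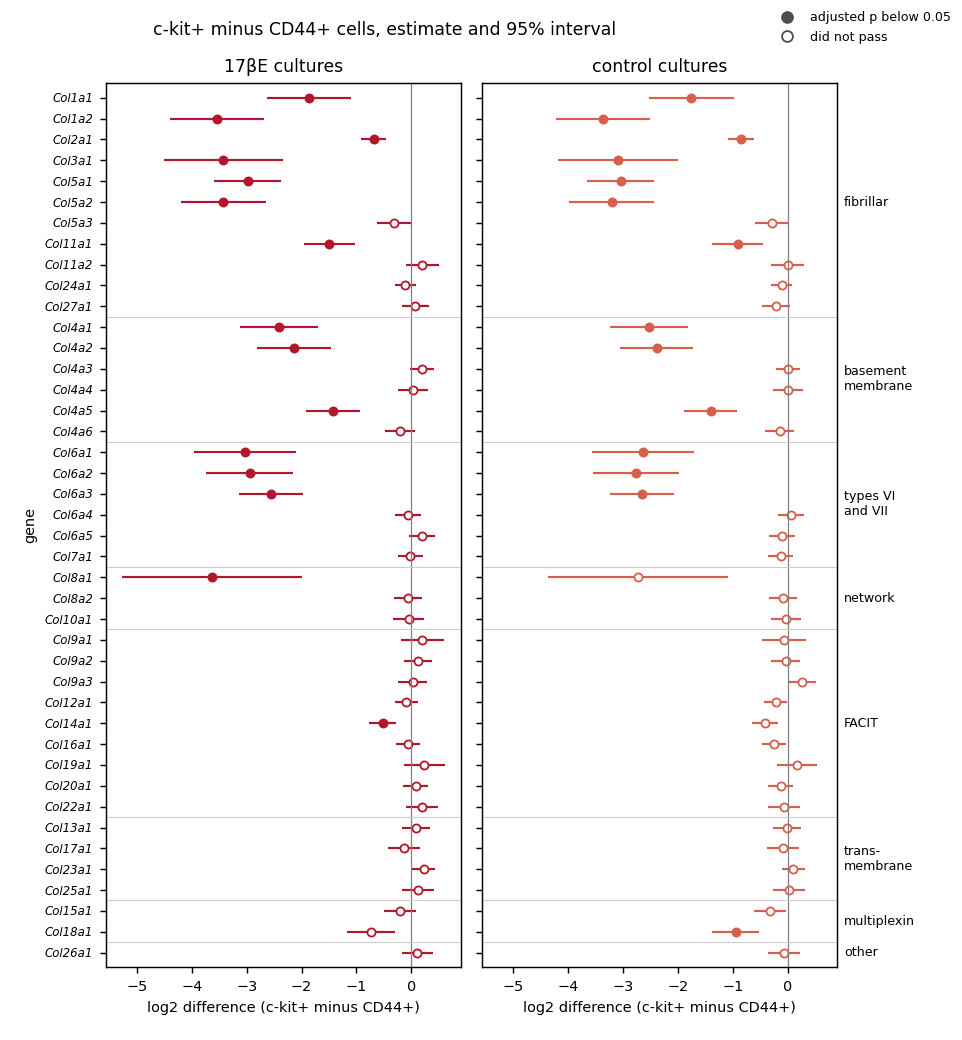
Log2 difference, c-kit+ minus CD44+, for each collagen gene (rows, by type) in 17βE cultures (left) and control cultures (right), with 95% intervals from limma; filled points passed at an adjusted p below 0.05. The filled points lie to the left of 0 in both panels and reach -3.63 for Col8a1 in the 17βE cultures, while the open points of the other 26 genes lie within -0.32 and 0.26.

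Among the fibrillar chains, 7 of 11 were lower in c-kit+ cells in both kinds of culture: Col1a1, Col1a2, Col2a1, Col3a1, Col5a1, Col5a2 and Col11a1. Col1a2 encodes the α2 chain of type I collagen, the main collagen of bone and most connective tissue. It read 7.95, 7.26 and 8.20 in c-kit+ 17βE cells, 7.0, 7.42 and 8.14 in c-kit+ control cells, 11.70, 10.74 and 11.60 in CD44+ 17βE cells, and 11.03, 10.06 and 11.59 in CD44+ control cells. Every c-kit+ array lay below every CD44+ array. The log2 difference was -3.54 (SE 0.40, 11.7-fold lower, adjusted p = 0.000413) in 17βE cultures and -3.37 (SE 0.40, 10.3-fold lower, adjusted p = 0.000763) in control cultures. Its partner Col1a1, the α1 chain of type I, read 6.75, 6.40 and 6.48 in c-kit+ 17βE cells, 6.29, 6.77 and 6.64 in c-kit+ control cells, 9.19, 7.90 and 8.15 in CD44+ 17βE cells, and 8.69, 7.43 and 8.84 in CD44+ control cells. The fractions did not overlap, but the 6 CD44+ arrays spread over 1.76 log2 units and the 6 c-kit+ arrays over 0.48. Col1a1 was 3.65-fold lower in 17βE cultures (log2 difference -1.87, SE 0.36, adjusted p = 0.0108) and 3.37-fold lower in control cultures (-1.75, SE 0.36, adjusted p = 0.0195). The call rested on single arrays: in 17βE cultures it was lost without c-kit+ replicate 2 (adjusted p = 0.0662) or CD44+ replicate 1 (0.0515), and in control cultures without c-kit+ replicate 1 (0.0879), CD44+ replicate 1 (0.07) or CD44+ replicate 3 (0.118).

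Col3a1, the chain of type III collagen, which builds reticular fibres and vessel walls, read 7.09, 5.24 and 6.15 in c-kit+ 17βE cells, 6.00, 5.22 and 6.30 in c-kit+ control cells, 10.13, 8.71 and 9.92 in CD44+ 17βE cells, and 8.99, 8.12 and 9.71 in CD44+ control cells. All c-kit+ values lay below all CD44+ values, with a spread of about 2 log2 units inside each fraction. The log2 difference was -3.42 (SE 0.50, 10.7-fold lower, adjusted p = 0.00177) with 17βE and -3.09 (SE 0.50, 8.54-fold lower, adjusted p = 0.00467) in controls.

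Type V collagen nucleates fibrils and limits their width. Col5a1 (α1 chain), which had the smallest p of the collagen genes in both kinds of culture, read 5.64, 5.34 and 5.45 in c-kit+ 17βE cells, 5.29, 4.90 and 5.33 in c-kit+ control cells, 9.02, 7.79 and 8.58 in CD44+ 17βE cells, and 8.43, 7.65 and 8.57 in CD44+ control cells. Col5a2 (α2 chain) read 8.12, 6.82 and 7.84 in c-kit+ 17βE cells, 7.43, 6.84 and 7.89 in c-kit+ control cells, 11.42, 10.71 and 10.92 in CD44+ 17βE cells, and 11.03, 9.97 and 10.78 in CD44+ control cells. For both genes the gap between the fractions was wider than the spread within either. Col5a1 differed by -2.98 (SE 0.28, 7.92-fold lower, adjusted p = 0.000224) in 17βE cultures and by -3.04 (SE 0.28, 8.24-fold lower, adjusted p = 0.000231) in control cultures. Col5a2 differed by -3.42 (SE 0.36, 10.7-fold lower, adjusted p = 0.00031) and by -3.20 (SE 0.36, 9.22-fold lower, adjusted p = 0.000654). Col5a3, the α3 chain, did not pass, at -0.32 with 17βE and -0.28 in controls.

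Col2a1 and Col11a1 encode chains of the cartilage collagens II and XI and had low values. Col2a1 read 5.02, 5.20 and 5.20 in c-kit+ 17βE cells, 4.73, 4.78 and 4.98 in c-kit+ control cells, 5.92, 5.69 and 5.87 in CD44+ 17βE cells, and 5.63, 5.66 and 5.75 in CD44+ control cells. The difference was small but wide against the spread, at -0.69 (SE 0.11, 1.61-fold lower, adjusted p = 0.00255) with 17βE and -0.85 (SE 0.11, 1.80-fold lower, adjusted p = 0.00108) in controls. Col11a1 read 3.46, 3.32 and 3.40 in c-kit+ 17βE cells, 3.50, 3.66 and 3.60 in c-kit+ control cells, 5.14, 4.59 and 4.93 in CD44+ 17βE cells, and 5.02, 3.93 and 4.54 in CD44+ control cells. The c-kit+ values and the lowest CD44+ value were within the range of the 5 Y-linked genes. Col11a1 was lower in c-kit+ cells by a log2 difference of -1.49 (SE 0.22, 2.82-fold, adjusted p = 0.00156) with 17βE. In controls it was -0.91 (SE 0.22, 1.88-fold, adjusted p = 0.0469), and that call was lost when any c-kit+ control array, CD44+ control replicate 1 or CD44+ control replicate 3 was left out (adjusted p between 0.0705 and 0.178). The 7 chondrocyte marker genes, which mark cartilage cells, averaged between 4.0 and 4.30 on every array and none passed between the fractions. The remaining fibrillar genes Col5a3, Col11a2, Col24a1 and Col27a1 read between 2.76 and 6.03, with log2 differences from -0.32 to 0.20 in 17βE cultures and from -0.28 to 0.00 in control cultures.

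Of the 6 type IV genes of basement membranes, 3 were lower in c-kit+ cells in both kinds of culture. Col4a1 and Col4a2 encode the chains found in nearly all basement membranes and neighbour each other in the GRCm38.p6 assembly. Col4a1 read 8.09, 7.31 and 7.64 in c-kit+ 17βE cells, 7.80, 6.78 and 7.42 in c-kit+ control cells, 10.80, 9.55 and 9.92 in CD44+ 17βE cells, and 10.24, 9.52 and 9.82 in CD44+ control cells. Col4a2 read 6.44, 5.96 and 5.51 in c-kit+ 17βE cells, 6.27, 5.55 and 5.09 in c-kit+ control cells, 8.70, 7.80 and 7.83 in CD44+ 17βE cells, and 8.18, 7.87 and 8.02 in CD44+ control cells. In both genes the fractions were apart on all arrays. Col4a1 was 5.31-fold lower with 17βE (log2 difference -2.41, SE 0.33, adjusted p = 0.00116) and 5.77-fold lower in controls (-2.53, SE 0.33, adjusted p = 0.00126). Col4a2 was 4.41-fold lower with 17βE (-2.14, SE 0.31, adjusted p = 0.00156) and 5.22-fold lower in controls (-2.38, SE 0.31, adjusted p = 0.00126).

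Col4a5 and Col4a6, whose promoters are printed above, encode chains of more specialised basement membranes. Col4a5 read 5.99, 5.52 and 5.09 in c-kit+ 17βE cells, 5.22, 5.32 and 5.12 in c-kit+ control cells, 7.16, 7.11 and 6.63 in CD44+ 17βE cells, and 6.87, 6.80 and 6.20 in CD44+ control cells. Its log2 difference was -1.43 (SE 0.23, 2.70-fold lower, adjusted p = 0.00294) with 17βE and -1.40 (SE 0.23, 2.65-fold lower, adjusted p = 0.00447) in controls. Col4a6 read 4.57, 4.84 and 5.05 in c-kit+ 17βE cells, 4.75, 4.72 and 4.95 in c-kit+ control cells, 4.90, 5.13 and 5.05 in CD44+ 17βE cells, and 4.98, 4.89 and 4.97 in CD44+ control cells. The fractions overlapped for Col4a6, and its log2 difference was -0.20 with 17βE and -0.15 in controls. Col4a3 and Col4a4, the α3 and α4 chains of the kidney filter, also neighbour each other and read between 3.35 and 4.26. Of the other neighbouring pairs in GRCm38.p6, both genes were lower in c-kit+ cells for Col3a1 with Col5a2 and for Col6a1 with Col6a2, and neither passed for Col9a1 with Col19a1 or for Col6a5 with Col6a4.

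All 3 classical chains of type VI collagen, which links cells to the surrounding matrix, were lower in c-kit+ cells. Col6a1 read 6.37, 4.90 and 5.83 in c-kit+ 17βE cells, 5.82, 5.94 and 5.45 in c-kit+ control cells, 9.42, 7.95 and 8.85 in CD44+ 17βE cells, and 8.29, 7.68 and 9.16 in CD44+ control cells. Col6a2 read 7.59, 6.47 and 7.10 in c-kit+ 17βE cells, 6.60, 6.38 and 7.24 in c-kit+ control cells, 10.59, 9.29 and 10.10 in CD44+ 17βE cells, and 9.71, 8.89 and 9.90 in CD44+ control cells. Col6a3 read 6.00, 5.27 and 5.60 in c-kit+ 17βE cells, 5.59, 5.04 and 5.19 in c-kit+ control cells, 8.69, 7.77 and 8.08 in CD44+ 17βE cells, and 8.0, 7.45 and 8.31 in CD44+ control cells. None of the 3 overlapped between the fractions. In 17βE cultures Col6a1 was 8.22-fold lower (log2 difference -3.04, SE 0.43, adjusted p = 0.00147), Col6a2 was 7.69-fold lower (-2.94, SE 0.37, adjusted p = 0.000686) and Col6a3 was 5.89-fold lower (-2.56, SE 0.27, adjusted p = 0.000307). In control cultures Col6a1 was 6.24-fold lower (-2.64, SE 0.43, adjusted p = 0.00467), Col6a2 was 6.78-fold lower (-2.76, SE 0.37, adjusted p = 0.00144) and Col6a3 was 6.27-fold lower (-2.65, SE 0.27, adjusted p = 0.000326). The type VI relatives Col6a4 and Col6a5 and the anchoring-fibril gene Col7a1 did not pass, with log2 differences from -0.06 to 0.19 in 17βE cultures and from -0.12 to 0.06 in control cultures.

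Col8a1, a short-chain network collagen known from vessel walls and the cornea, had the widest spread among c-kit+ arrays. It read 7.25, 6.17 and 8.15 in c-kit+ 17βE cells, 6.06, 6.16 and 9.50 in c-kit+ control cells, 11.15, 10.41 and 10.91 in CD44+ 17βE cells, and 10.67, 9.22 and 9.98 in CD44+ control cells. The third c-kit+ control array lay above the lowest CD44+ control array, and the 6 c-kit+ arrays spanned 3.44 log2 units. The log2 difference was -3.63 (SE 0.76, 12.4-fold lower, adjusted p = 0.0197) with 17βE, and -2.72 (SE 0.76, adjusted p = 0.0936) in controls. The 17βE call was lost without c-kit+ replicate 1 (adjusted p = 0.0732), c-kit+ replicate 2 (0.119), CD44+ replicate 1 (0.101) or CD44+ replicate 3 (0.082). Over the 6 single omissions the control difference ran from -3.85, without c-kit+ control replicate 3, to -2.13. That replicate is the array that overlapped the CD44+ arrays. Leaving it out widens the gap by construction and is no support for a control difference. Col8a2, the other type VIII chain, and Col10a1, a collagen of hypertrophic cartilage, read between 3.35 and 4.22 with log2 differences from -0.08 to -0.03 in both kinds of culture.

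Col18a1, whose protein carries endostatin at its end and sits in vascular basement membranes, was bright in both fractions. It read 9.01, 8.51 and 8.64 in c-kit+ 17βE cells, 8.47, 8.84 and 7.92 in c-kit+ control cells, 9.52, 9.49 and 9.36 in CD44+ 17βE cells, and 9.25, 9.59 and 9.24 in CD44+ control cells. The fractions did not overlap. Its log2 difference was -0.95 (SE 0.20, 1.93-fold lower, adjusted p = 0.0259) in controls and -0.74 (SE 0.20, adjusted p = 0.0888) with 17βE, where blocking on the replicate number gave the same difference and an adjusted p of 0.0453. The control call was lost without c-kit+ control replicate 1 (adjusted p = 0.0736) or any CD44+ control array (0.0504, 0.101 and 0.0708 without replicates 1, 2 and 3). The other multiplexin gene, Col15a1, differed by -0.20 with 17βE and by -0.32 in controls and did not pass.

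Of the 9 genes of fibril-associated collagens, Col14a1, which encodes a collagen that binds fibrils of type I, was lower in c-kit+ cells in 17βE cultures. It read 4.10, 4.13 and 4.36 in c-kit+ 17βE cells, 4.37, 4.45 and 4.47 in c-kit+ control cells, 4.79, 4.53 and 4.83 in CD44+ 17βE cells, and 4.92, 4.73 and 4.88 in CD44+ control cells. The log2 difference was -0.52 (SE 0.11, 1.44-fold lower, adjusted p = 0.0234) with 17βE and -0.41 (SE 0.11, adjusted p = 0.0861) in controls. The 17βE call was lost without c-kit+ replicate 1 or 2 or CD44+ replicate 1 or 3 (adjusted p between 0.107 and 0.128), and all 6 c-kit+ values lay within the range of the 5 Y-linked genes. Col16a1, another fibril-associated collagen, read 6.55, 6.38 and 6.39 in c-kit+ 17βE cells, 6.32, 6.48 and 6.37 in c-kit+ control cells, 6.45, 6.44 and 6.61 in CD44+ 17βE cells, and 6.55, 6.57 and 6.80 in CD44+ control cells. It differed by -0.06 with 17βE and by -0.25 (adjusted p = 0.306) in controls. The other FACIT genes (Col9a1, Col9a2, Col9a3, Col12a1, Col19a1, Col20a1 and Col22a1), the 4 membrane-spanning collagens (Col13a1, Col17a1, Col23a1 and Col25a1) and Col26a1 did not pass. The membrane-spanning genes read between 3.08 and 5.70 and differed by -0.13 to 0.22 with 17βE and by -0.08 to 0.11 in controls. For all 26 genes on neither list, the 95% interval from the brightest probe set lay inside -1 and 1 in both kinds of culture. A second set of Col12a1, given below, did pass. Of the 26, 1 reached the level of the median gene, and several read within the range of the 5 Y-linked genes. For those a narrow interval does not exclude a larger difference.

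The tested probe set was not the only one for 27 of the genes, and sets of 1 gene did not always move together. With each of 34945 probe sets taken on its own, 23 of the 82 collagen sets passed in 17βE cultures (1.9% of all sets) and 19 of the 82 in control cultures (1.65% of all sets), all lower in c-kit+ cells. These belonged to 16 and 14 genes. Both brighter sets of Col1a2 differed alike, at -3.44 in 17βE cultures and -3.58 in control cultures for the second of them, while the dimmest differed by -0.32 and -0.29. The second set of Col1a1 differed by -0.29 and -0.35. Col12a1, a FACIT gene of tendon and ligament sheaths, had a call that turned on the choice of set. Its brightest set differed by -0.09 and -0.22, but its second set read 4.18, 4.11 and 4.19 in c-kit+ 17βE cells, 3.61, 4.24 and 4.16 in c-kit+ control cells, 6.28, 5.27 and 5.78 in CD44+ 17βE cells, and 5.82, 4.79 and 5.38 in CD44+ control cells. That set passed at -1.61 (adjusted p = 0.0068) with 17βE and -1.32 (adjusted p = 0.0295) in controls, with no overlap of the fractions. The probe sequences and their places in the transcripts were not used here.

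**Figure D3:**
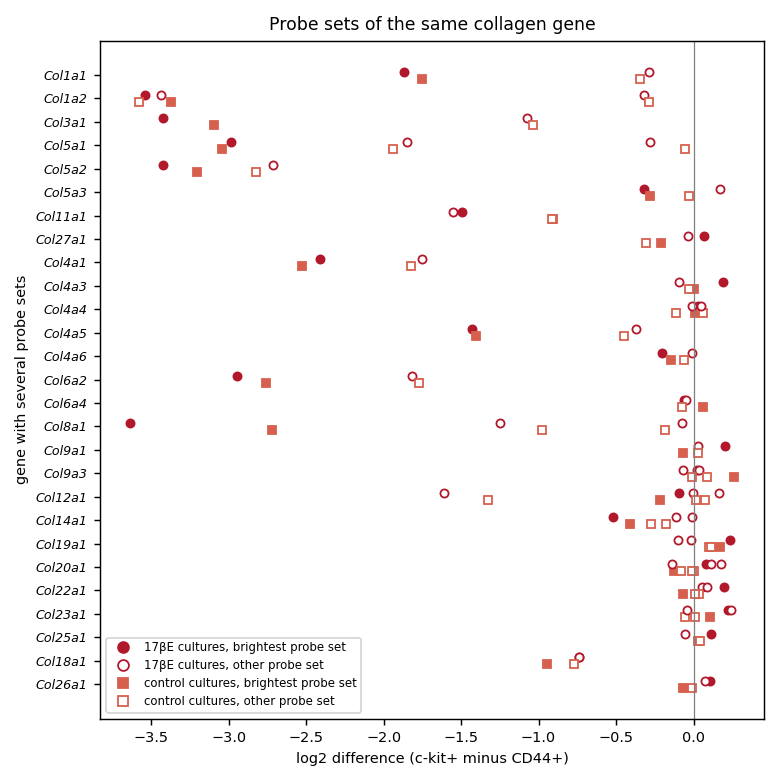
Log2 difference, c-kit+ minus CD44+, of every probe set of the 27 collagen genes that have several (rows), in 17βE cultures (circles) and control cultures (squares); filled symbols are the brightest set of a gene. Sets of genes such as Col1a1, Col1a2, Col3a1 and Col8a1 lie more than 1 log2 unit apart, and Col12a1 is the row where an open symbol lies far to the left of the filled one.

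Some markers of mesenchymal and smooth muscle cells were also lower in c-kit+ cells. Of 12 mesenchymal markers that are not collagens, 6 were lower in c-kit+ cells in 17βE cultures (Pdgfra, Pdgfrb, Cxcl12, Postn, Prrx1 and Cdh11) and 5 in control cultures (the same without Pdgfra), beside 2.33% and 1.76% of all genes. Their mean log2 value ran from 4.82 to 5.41 in c-kit+ 17βE cells, 4.84 to 5.04 in c-kit+ control cells, 6.07 to 6.81 in CD44+ 17βE cells and 5.75 to 6.54 in CD44+ control cells. Of 6 smooth muscle genes, 4 (Acta2, Tagln, Cnn1 and Myl9) were lower in both kinds of culture, beside the same shares of all genes. On the same list Myh11 (-0.01 with 17βE and -0.17 in controls) and Des (0.11 and -0.09) did not pass. The group means of Myh11 lay between 3.62 and 3.78, within the range of the Y-linked genes. The mean of that list ran from 5.76 to 5.95, 5.52 to 5.62, 7.02 to 7.69 and 6.69 to 7.23 in the same order of groups. No endothelial gene of 7 passed, and of 5 osteoblast genes only Dmp1 was lower, in 17βE cultures. On lists of adipocyte, macrophage and stem cell genes 1 gene each passed between the fractions in at least 1 kind of culture (Fabp4 and Mrc1 higher, Cd34 lower in c-kit+ cells), and on mast cell, neutrophil and red cell lists none did. The means of the stem cell and neutrophil lists were nevertheless lower on every c-kit+ array than on every CD44+ array, by less than the lists above. The stem cell mean ran from 5.42 to 5.67, 5.45 to 5.68, 5.78 to 5.91 and 5.75 to 5.96 in the same order of groups. The neutrophil mean ran from 4.58 to 4.80, 4.46 to 4.81, 4.85 to 5.32 and 5.14 to 5.25. Cd14, another macrophage gene, passed for the mean 17βE effect over both fractions (log2 difference 0.43, limma adjusted p = 0.0148). The 3′ minus 5′ value of Gapdh, which grows as RNA is degraded or amplified unevenly, ran from 4.23 to 6.17 in c-kit+ 17βE cells, 4.62 to 5.35 in c-kit+ control cells, 3.32 to 4.31 in CD44+ 17βE cells and 2.83 to 4.14 in CD44+ control cells. That of Actb ran from 2.34 to 4.68, 2.48 to 3.98, 1.69 to 2.14 and 1.52 to 2.11 in the same order. For Actb every c-kit+ array lay above every CD44+ array, so fraction and this measure of RNA quality cannot be told apart. With the Gapdh value as a covariate, an alternative chosen after seeing the data, 14 collagen genes were lower in c-kit+ cells in 17βE cultures and 12 in control cultures. That fit called 2.01% and 1.4% of all genes in either direction. The part of cell makeup in the collagen differences was not tested.

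**Figure D4:**
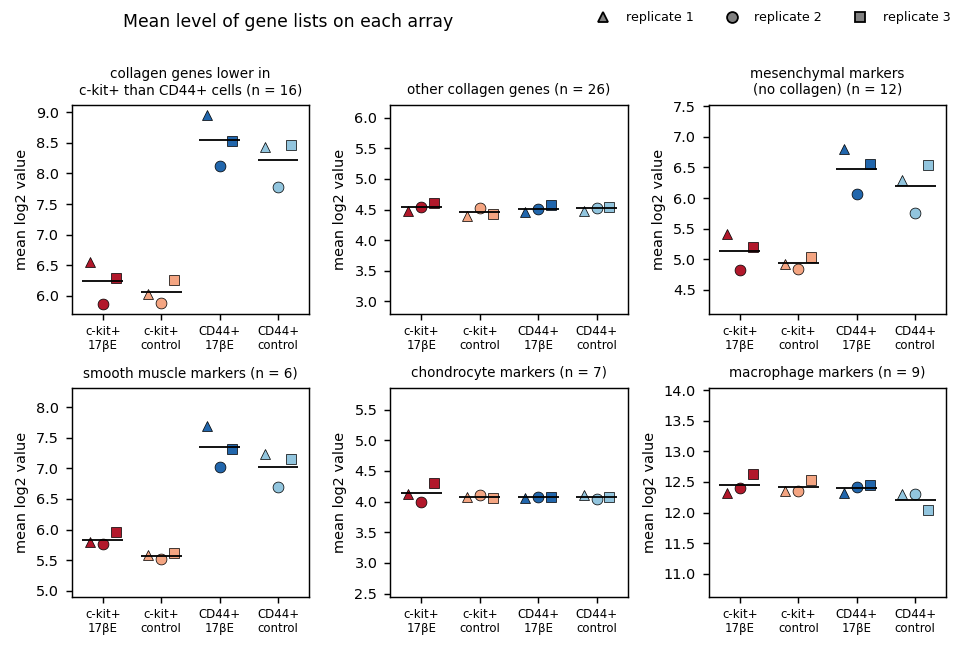
Mean log2 value of 6 gene lists on each array, by group; symbols give the replicate number and bars the group mean. The 16 collagen genes, the mesenchymal and the smooth muscle lists are lower on all c-kit+ arrays than on all CD44+ arrays, while the other 26 collagen genes stay between 4.40 and 4.61 and the chondrocyte and macrophage lists differ little.

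Replicates of a group differed for many of the 16 genes at once in 3 of the 4 groups. In CD44+ 17βE cells, replicate 1 held the highest value for 15 of the 16, where it did so for 30.6% of all genes, and replicate 2 the lowest for 14 (31.0% of all genes). In CD44+ control cells, replicate 2 held the lowest value for 13 of the 16 (22.6% of all genes). In c-kit+ 17βE cells replicate 1 was the highest for 12 of the 16 (29.1% of all genes) and replicate 2 the lowest for 12 (35.8%). In c-kit+ control cells no such order appeared: the highest value lay on replicates 1, 2 and 3 for 3, 5 and 8 of the 16 genes, and the lowest for 6, 6 and 4. The mean of the 16 genes was 6.55, 5.87 and 6.29 in c-kit+ 17βE cells, 6.03, 5.88 and 6.27 in c-kit+ control cells, 8.96, 8.13 and 8.53 in CD44+ 17βE cells, and 8.43, 7.78 and 8.46 in CD44+ control cells. The mesenchymal list was likewise highest on replicate 1 and lowest on replicate 2 of the CD44+ 17βE arrays, at 6.81 and 6.07.

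Genes that fold, modify, process and cross-link collagen were examined as a list of 29. In 17βE cultures 11 were lower in c-kit+ cells and in control cultures 11, beside 2.33% and 1.76% of all genes, and none was higher. The list's median log2 difference was -0.24 and -0.12, beside 0.03 and 0.01 for all genes. Serpinh1, the collagen-specific chaperone, read 6.84, 5.88 and 6.33 in c-kit+ 17βE cells, 6.15, 5.81 and 6.33 in c-kit+ control cells, 10.04, 9.04 and 9.48 in CD44+ 17βE cells, and 9.45, 8.38 and 9.08 in CD44+ control cells. It was 8.97-fold lower with 17βE (log2 difference -3.17, SE 0.31, adjusted p = 0.000226) and 7.31-fold lower in controls (-2.87, SE 0.31, adjusted p = 0.000475). The fractions were apart on all arrays, as they were for Lox, the lysyl oxidase that starts cross-linking (-2.55 with 17βE and -2.71 in controls), for Pcolce, the enhancer of procollagen C-terminal cleavage (-2.65 and -2.79), and for Sparc, a matricellular collagen-binding protein (-2.55 and -2.57). The other genes that passed in both were the cross-linking enzymes Loxl1 (-1.82 and -1.55) and Loxl3 (-1.10 and -0.94), the lysyl hydroxylase Plod2 (-2.28 and -1.33), the endoplasmic reticulum proteins P3h4 (-1.41 and -0.93) and Fkbp14 (-1.43 and -0.90), the enhancer Pcolce2 (-1.13 and -0.91) and the procollagen protease Bmp1 (-0.64 and -0.60). Among the 18 genes that did not pass, P4hb, a subunit of prolyl 4-hydroxylase and a general disulfide isomerase, differed by -0.17 and 0.09, and P4ha1, the catalytic subunit, by -0.24 and 0.05.

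Of 10 genes of collagen receptors and uptake, 3 were lower in c-kit+ cells in both kinds of culture and 1 was higher. Among all genes, 2.33% were lower and 0.324% higher in 17βE cultures, and 1.76% and 0.539% in control cultures. Ddr1, a receptor tyrosine kinase that binds collagen, read 6.57, 5.69 and 5.66 in c-kit+ 17βE cells, 5.47, 4.59 and 6.52 in c-kit+ control cells, 9.50, 8.83 and 9.10 in CD44+ 17βE cells, and 8.95, 7.52 and 8.05 in CD44+ control cells. It was 8.99-fold lower with 17βE (log2 difference -3.17, SE 0.44, adjusted p = 0.00146) and 6.26-fold lower in controls (-2.65, SE 0.44, adjusted p = 0.00565), without overlap. Ddr2, its relative that binds fibrillar collagen, differed by -0.62 and -0.64, and Mrc2, an endocytic collagen receptor, by -1.74 and -1.59. Mrc1, the mannose receptor of macrophages, was higher in c-kit+ cells at 0.66 in both kinds of culture (adjusted p = 0.0316 with 17βE and 0.0353 in controls). Of 11 collagen-degrading proteases, the gelatinase Mmp2 was lower in both (-2.24, adjusted p = 0.000431 with 17βE, and -2.08, adjusted p = 0.0009 in controls), and Ctsk, the cathepsin of osteoclasts, in 17βE cultures (-0.96, adjusted p = 0.0169; controls -0.57, adjusted p = 0.192). In the control cultures the calls of Plod2, Fkbp14, Bmp1, Pcolce2, Loxl3, Ddr2, Mrc1 and Mrc2 were lost without CD44+ replicate 3, and those of all but Ddr2 also without CD44+ replicate 1. In the 17βE cultures the calls of Bmp1, Ddr2, Mrc1, Mrc2 and Ctsk were lost without CD44+ replicate 3, and those of all 5 also without at least 1 c-kit+ array.

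The second question was whether 17βE changed collagen expression, and no collagen gene passed for it. In c-kit+ cells 0 of the 42 genes passed (limma, Benjamini-Hochberg), where 0.181% of all genes did, and 3 had an unadjusted p below 0.05, against 4.47% of all genes. In CD44+ cells 0 of 42 passed, against 0.291% of all genes, and 0 had an unadjusted p below 0.05, against 5.38%. For the mean of the effects in both fractions 0 of 42 passed, against 0.951% of all genes, and 4 had an unadjusted p below 0.05, against 7.16%. For the difference between the effects in the c-kit+ and CD44+ fractions 0 of 42 passed, against 0.0% of all genes, and 0 had an unadjusted p below 0.05, against 1.63%. The median log2 difference of the 42 genes, 17βE minus control, was 0.11 in c-kit+ cells and 0.06 in CD44+ cells, beside 0.02 and 0.01 for all genes. The control arrays of a fraction enter both this comparison and the comparison of fractions.

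**Figure D5:**
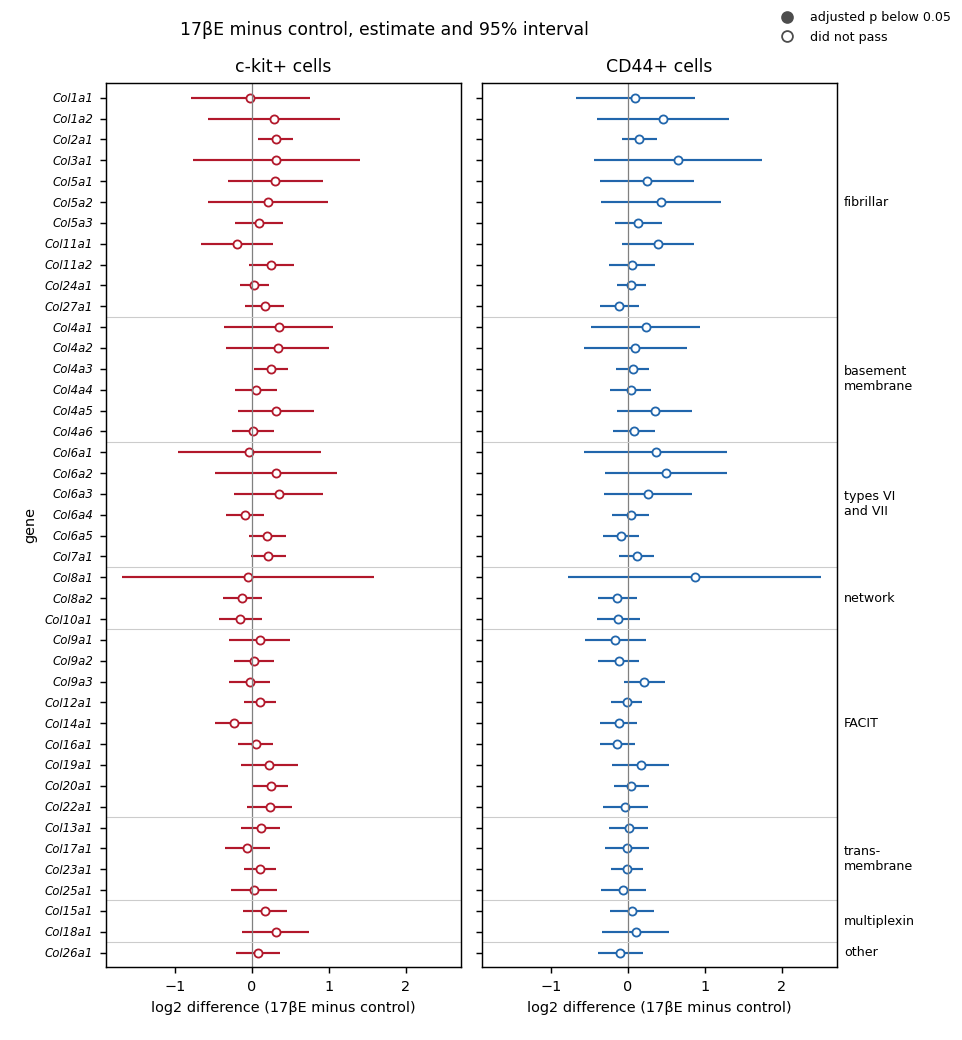
Log2 difference, 17βE minus control, for each collagen gene (rows, by type) in c-kit+ cells (left) and CD44+ cells (right), with 95% intervals from limma; all points are open because none passed at an adjusted p below 0.05. The interval of Col8a1 in CD44+ cells runs from -0.77 to 2.50, and those of the 26 genes that passed in no comparison lie inside -1 and 1. All but 1 of these 26 lay below the level of the median gene.

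In c-kit+ cells the smallest p belonged to Col2a1, which read 5.02, 5.20 and 5.20 with 17βE and 4.73, 4.78 and 4.98 in controls, with no overlap. Its log2 difference was 0.31 (SE 0.11, unadjusted p = 0.0125, adjusted p = 0.726). Col4a3 read 4.26, 4.03 and 4.19 with 17βE and 3.79, 3.96 and 3.99 in controls (0.25, adjusted p = 0.982). Col20a1, a FACIT gene, read 5.44, 5.48 and 5.33 with 17βE and 5.02, 5.21 and 5.28 in controls (0.25, adjusted p = 0.999). All 17βE arrays lay above all control arrays for 6 of the 42 genes (14.3%), against 5.34% of all genes: Col2a1, Col4a3, Col5a1, Col7a1, Col20a1 and Col22a1. They lay below for Col11a1 and Col14a1 (4.76%), against 2.47% of all genes.

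In CD44+ cells no collagen gene separated the groups in either direction, against 6.75% of all genes higher and 5.92% lower with 17βE. The smallest p values belonged to Col11a1 (5.14, 4.59 and 4.93 with 17βE and 5.02, 3.93 and 4.54 in controls, log2 difference 0.39, SE 0.22, adjusted p = 0.949), Col9a3 (4.98, 4.95 and 5.01 with 17βE and 4.73, 4.98 and 4.60 in controls, 0.21) and Col4a5 (7.16, 7.11 and 6.63 with 17βE and 6.87, 6.80 and 6.20 in controls, 0.34). Col8a1 had the largest difference, 0.86 (SE 0.76, adjusted p = 0.949). Of the 16 genes that separated the fractions, 15 had a difference above 0 in CD44+ cells and 11 in c-kit+ cells, and none passed. These same arrays chose the 16 genes, and many of the 16 rose and fell together by array, so these counts are a description only. Within the same-numbered pairs of CD44+ arrays, 10 of the 42 genes (23.8%) were higher with 17βE in 3 of 3 pairs, against 16.8% of all genes, and all 10 were among those 16. For Col3a1 the pairs differed by 1.14, 0.59 and 0.22, and for Col8a1 by 0.48, 1.19 and 0.92. They differed by 0.39, 0.74 and 0.15 for Col5a2 and by 0.67, 0.68 and 0.01 for Col1a2. Others of the 16 went both ways, such as Col1a1 (0.51, 0.47 and -0.70), Col6a1 (1.13, 0.27 and -0.31) and Col4a2 (0.53, -0.07 and -0.18). Col6a3 and Col18a1 also had a pair below 0, and Col14a1 had all 3 below 0. A fit with array weights gave CD44+ control replicate 2 a weight of 9.38, the other 11 arrays weights between 0.25 and 1.48, and called Col1a2, Col5a2, Col6a2, Col8a1 and Col11a1 higher with 17βE in CD44+ cells (log2 differences 1.12, 0.92, 0.95, 1.44 and 0.83). It called 7.72% of all genes there. CD44+ control replicate 2 held the lowest CD44+ control value of each of these called collagen genes.

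Over both fractions the smallest p belonged to Col2a1 (mean effect 0.23, SE 0.08, adjusted p = 0.353), followed by Col14a1 (-0.18, adjusted p = 0.661) and Col7a1 (0.16, adjusted p = 0.684). Col7a1 read 6.02, 5.89 and 5.93 in c-kit+ 17βE cells, 5.75, 5.76 and 5.69 in c-kit+ control cells, 5.75, 6.11 and 6.05 in CD44+ 17βE cells, and 5.86, 5.83 and 5.88 in CD44+ control cells. The difference of the effects, c-kit+ minus CD44+, was -0.59 for Col11a1, 0.29 for Col6a5 and 0.28 for Col27a1, the 3 of smallest p. For Col8a1, Col14a1 and Col18a1, which passed between the fractions in only 1 kind of culture, it was -0.91 (SE 1.07), -0.11 (SE 0.16) and 0.21 (SE 0.28), all with an adjusted p of 1.00. The data limited what could be seen: for 6 of the 16 genes the 95% interval of the 17βE effect reached above 1 in c-kit+ cells, and for 6 of the 16 in CD44+ cells. For the other 26 genes all intervals in both fractions lay inside -1 and 1. Of these, 1 reached the level of the median gene, and several read within the range of the Y-linked genes. For those a narrow interval does not exclude a larger effect.

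Among the 50 processing, receptor and protease genes, 0 passed for 17βE in either fraction and 1 for the mean effect, where 0.951% of all genes did. Mmp14, a membrane-bound collagenase, read 10.76, 11.32 and 11.17 in c-kit+ 17βE cells, 10.21, 10.69 and 10.17 in c-kit+ control cells, 10.70, 10.79 and 10.96 in CD44+ 17βE cells, and 9.79, 10.20 and 10.38 in CD44+ control cells. The 17βE arrays lay above the control arrays in both fractions. The mean effect was 0.71 (SE 0.13, 1.63-fold higher, adjusted p = 0.0211), and the single fractions did not pass (0.72, adjusted p = 0.313 in c-kit+ cells and 0.69, adjusted p = 0.292 in CD44+ cells). The call was lost without c-kit+ 17βE replicate 2 or 3, c-kit+ control replicate 1, or CD44+ 17βE replicate 2 or 3, with a mean effect between 0.62 and 0.79 over all single omissions. The processing genes of smallest p were P4ha2 (-0.26), Lox (0.58) and Pcolce (0.50) in c-kit+ cells and Plod2 (0.87, adjusted p = 0.604), P3h4 (0.45) and P4ha1 (0.25) in CD44+ cells. The receptor of smallest p in CD44+ cells was Ddr1 (0.97, adjusted p = 0.926). The median 17βE effect was 0.02 for the processing list, 0.09 for the receptors and 0.16 for the proteases in c-kit+ cells, and 0.15, 0.09 and 0.23 in CD44+ cells.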

How the data were processed

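The deposited values are log2 probe set values that the authors made with RMA, per the submitters' processing notes; its release was not given in the sources used here. RMA corrects background, quantile-normalizes and summarises the probes of a set. Per the labels' protocols, total RNA was amplified with a two-cycle kit and labelled with biotin. The table holds 45101 probe sets, from 2.47 to 14.81, with array medians between 4.75 and 4.84 and no missing value; 64 control sets, 932 naming several genes and 9160 unnamed here were left out of the tests, which left 34945. Genes were named from the platform annotation, and the symbols of all 42 members matched RefSeq by gene ID. Each of 18193 genes was represented by its brightest probe set over the 12 arrays, with no filter. The number of arrays limits the precision.

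All genes were fitted with limma 3.58.1 in R 4.3.3 with 1 mean per group over 12 arrays, empirical Bayes moderation without trend and Benjamini-Hochberg adjustment over 18193 genes, with a threshold of 0.05. There were 6 comparisons: 17βE against control in each fraction, their mean and their difference, and c-kit+ against CD44+ in each kind of culture. Fold changes are powers of the log2 differences. The procedure was tested on simulated data. Tables were computed in Python 3.11.15 (pandas 2.3.3) and drawn using matplotlib 3.10.9. Named were all collagen genes that passed or whose mean reached that of the median gene, the 3 of smallest p per comparison, and, from the lists of processing, receptor and protease genes, those that passed and those of smallest p; Col12a1, Col15a1 and other members named beyond this, and the markers, were added to account for all members. The members and lists were chosen with earlier results of these data known. There were 9 alternative settings, which concerned probe sets, levels, scaling, moderation, array weights, arrays included and the replicate block; 2 others (every probe set on its own and the Gapdh covariate) were chosen after seeing the data.

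Whether replicate numbers pair arrays was checked by correlating deviations from the group means over all genes. For CD44+ 17βE and control arrays the same-numbered correlations were 0.303, 0.368 and 0.322, and for c-kit+ and CD44+ 17βE arrays 0.447, 0.192 and 0.312, so these were taken as paired. They were 0.345, 0.0916 and 0.253 for c-kit+ 17βE and control arrays and 0.175, 0.122 and -0.208 for the control arrays of the fractions, which were not. In the sets taken as paired, each same-numbered correlation was above those of either array with other numbers. By contrast, c-kit+ 17βE replicate 2 gave 0.100 with c-kit+ control replicate 1, and c-kit+ control replicate 2 gave 0.391 with CD44+ control replicate 3. The main fit did not use the pairing, which entered only as the replicate block.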

Additional observations from a re-analysis of the deposited data

How the results depend on the processing

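No collagen call changed direction under any alternative that tested it. With 1 array left out, the number of collagen genes lower in c-kit+ cells ranged from 12 to 15 in 17βE cultures and from 11 to 14 in control cultures, and it stayed at 0 in the 4 comparisons of 17βE effects. The median log2 difference of the collagen genes then ranged from -0.14 to -0.07 (17βE cultures), -0.23 to -0.16 (control cultures), 0.08 to 0.15 (17βE effect in c-kit+ cells), 0.02 to 0.08 (in CD44+ cells), 0.04 to 0.11 (difference of effects) and 0.08 to 0.13 (mean effect). In every alternative that tested them, 12 genes were called in 17βE cultures and 11 in control cultures; Col2a1 and Col11a1 were not tested in the setting restricted by level. Of 430 alternative values of collagen calls, 36 lost the call, in Col1a1, Col8a1, Col11a1, Col14a1 and Col18a1. Besides single arrays, Col1a1 in control cultures lost it with array weights (-1.06, adjusted p = 0.0893), with only the arrays compared (0.083) and with the Gapdh covariate (0.0946), Col11a1 there with these and 3 other settings (array weights -0.45), Col18a1 there with only the arrays compared, Col8a1 in 17βE cultures with trended, robust moderation and with the covariate, and Col14a1 there with the covariate and with the mean of its probe sets (-0.22). Restricting the fit to genes at or above the median level left 14 collagen genes, which moved the medians to -2.75 (17βE cultures), -2.64 (control cultures), 0.31 (17βE effect in c-kit+ cells), 0.30 (in CD44+ cells), -0.0712 (difference of effects) and 0.30 (mean effect); the median of the difference of effects was 0.08 over all 42, so its sign changed. That level is a mean over both fractions, which several of the 14 reached through the CD44+ cells, so these fraction medians are no support for the difference. Median centring moved the median to -0.0314 (17βE cultures) and -0.0781 (control cultures), quantile normalization to -0.0872 (control cultures) and the Gapdh covariate to -0.0419 (17βE cultures); the cause was not tested. Median centring also changed the split of all genes called in control cultures to 240 higher and 281 lower in c-kit+ cells, against 98 higher and 320 lower. Array weights raised the count of collagen genes called for 17βE to 5 of 42 in CD44+ cells, against 7.72% of all genes. For the mean effect the count rose to 1 of 42, Col2a1, against 2.87% of all genes. With the replicate number as a block, 16 collagen genes were called in 17βE cultures (Col18a1 added) and 16 in control cultures (Col8a1, adjusted p = 0.0252, and Col14a1, adjusted p = 0.0478, added, although the numbers were not taken to pair those arrays), 0 for 17βE in each comparison, and no other collagen call changed. Between the fractions that fit called 3.64% of all genes in 17βE cultures and 3.81% in control cultures, in either direction. Of the 34 calls of processing, receptor and protease genes, 16 held under every alternative run. Signal near that of Y-linked genes limits what can be said of members with values in that range.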
